A study of Mus musculus with 2 samples.

Results

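The regions described here are stretches of open chromatin that lie at the 3′ ends of protein-coding genes in the mouse urinary bladder, away from promoters and outside coding sequence. They were found by joining the peaks of 2 DNase-seq libraries wherever peaks overlapped and keeping the joined regions that held peaks of both. A region was taken when its centre lay within 500 bp of the annotated end of a protein-coding gene on an autosome, more than 2 kb from every annotated transcription start site (TSS) and outside every coding sequence (CDS). The rule gave 485 regions, at the ends of 461 genes, out of 73164 shared regions in all. Peaks of replicate 1 alone gave 911 regions by the same rule, and those of replicate 2 alone 523. Of the 71323 shared regions on autosomes, 39475 passed the same TSS and CDS limits, and the 38990 of these that were not at a gene end are called other distal regions below.

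Both libraries came from bladder tissue of male B6CASTF1/J mice, an F1 hybrid of C57BL/6J and CAST/EiJ, at 14 days of age, with no treatment named. Replicate 2 pooled 3 males and replicate 1 is labelled as a male. They form a single group, so no conditions could be compared, and with 2 libraries an exact sign-flip test cannot go below p = 0.5; values are therefore given per library, and differences between classes of region as values with no test. The tissue holds urothelium, smooth muscle, stroma and other cells together, so that an open region cannot be assigned to a cell type, and more cells with a region open cannot be told apart from a more open region in each cell. A shared peak lay within 1 kb of a TSS in 26 of 29 listed urothelial genes and 21 of 22 listed autosomal smooth muscle genes, against 14048 of 20807 autosomal protein-coding genes. Lists that are not specific to bladder were as high, with 18 of 18 housekeeping and 24 of 24 immediate-early genes, while 8 of 20 immune genes had one, so these counts alone do not check the tissue.

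At the 3′ end of a gene the RNA is cut and a poly(A) tail is added, usually shortly after a hexamer, AATAAA or a close variant, which the cleavage and polyadenylation complex reads in the RNA. RNA polymerase II then slows and leaves the template downstream. Sequence at gene ends is known to be A- and T-rich, and it can also hold enhancers or sites of CTCF, the zinc-finger protein that stops cohesin and sets the borders of chromatin loops.

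The sequences below are shown because matches to the CTCF core, with 1 mismatch allowed, were more frequent than in other distal regions and mostly lay under a footprint, a short protected stretch that the authors called within open chromatin. They are the 8 regions with the strongest signal whose CTCF match overlapped a footprint of both libraries. Each is a run of 30 bases of the RefSeq assembly GRCm38.p6 (mm10), read 5′ to 3′ on the strand of the match, with the 12-letter core match in capitals.

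Acvrl1, 304 bp downstream of the end, chr15:101145555-101145584, minus strand: gcgcattggCCAGCAGAGGGCgacgtggct
Bcan, 451 bp downstream, chr3:87987135-87987164, minus strand: aggctgtgaCCAGTAGAGGGCgctgcagat
Dand5, 335 bp upstream in the 3′ UTR, chr8:84815722-84815751, minus strand: cgcttttagCCACTAGGTGGCaccgcgtcc
Ripor1, 351 bp downstream in an intron, chr8:105622557-105622586, plus strand: gagctgtcgCCACCAGGGGGCagcagaact
Ror2, 408 bp upstream in the 3′ UTR, chr13:53109743-53109772, plus strand: catcctccgCCAGCAGGGGGCtcacggagc
1700029H14Rik, 477 bp upstream in an intron, chr8:13551140-13551169, plus strand: gaatctgaaCCACCAGAGGGCaccatcaga
Dtnb, 76 bp upstream in the 3′ UTR, chr12:3781731-3781760, plus strand: tgggactggCCGCCAGGGGGCgcactgcct
Rap1gap, 449 bp downstream, chr4:137730289-137730318, plus strand: cttgtatggCCACCAGGGGGCaccagagga

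A further 3 regions outside every annotated gene are shown whole, on the plus strand, with the bases that lay under a footprint of both libraries in capitals: the strongest region at any gene end, and the strongest such regions at a smooth muscle gene and at a urothelial gene. The region at Upk1a has a RefSeq transcript start 19 bp from its centre, which the annotation used for the rule does not hold.

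Ctdsp1, chr1:74397361-74397580: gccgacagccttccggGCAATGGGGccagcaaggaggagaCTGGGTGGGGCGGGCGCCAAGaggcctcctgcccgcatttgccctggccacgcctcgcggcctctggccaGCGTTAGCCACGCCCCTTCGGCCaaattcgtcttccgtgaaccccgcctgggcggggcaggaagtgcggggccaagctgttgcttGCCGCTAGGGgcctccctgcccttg
Lmod1, chr1:135368301-135368500: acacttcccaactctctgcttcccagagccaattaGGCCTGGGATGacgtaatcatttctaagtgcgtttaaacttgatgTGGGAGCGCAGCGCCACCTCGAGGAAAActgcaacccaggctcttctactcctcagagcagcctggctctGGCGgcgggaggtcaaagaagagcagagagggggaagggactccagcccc
Upk1a, chr7:30602701-30602900: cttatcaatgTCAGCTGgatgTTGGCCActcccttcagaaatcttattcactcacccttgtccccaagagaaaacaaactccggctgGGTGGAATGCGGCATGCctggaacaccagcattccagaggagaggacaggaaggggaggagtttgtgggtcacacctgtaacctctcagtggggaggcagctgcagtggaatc

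In Ctdsp1 63 of 220 bases were under footprints of both libraries, in Lmod1 43 of 200 and in Upk1a 31 of 200.

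The first question was where the regions lie about the end. Of the 485 regions, 277 were centred downstream of the end and 208 upstream. The downstream share was 57.1% (95% exact binomial interval 52.6 to 61.6%, which covers counting error only). The lean was not particular to the end. At 2000 to 5000 bp from an end, 1444 shared regions within the same TSS and CDS limits lay downstream and 866 upstream. By annotation, 204 of the 485 lay in a 3′ UTR, 229 outside every gene, 43 in an intron and 9 in another exon. Of the 204 in a 3′ UTR, 16 lay downstream of the nearest end. Only 58 regions covered the annotated end itself, and the median distance of a centre from the end was 271 bp.

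Shared regions were least dense at the end itself. Within 100 bp of a gene end there were 19.6 regions per Mb of eligible sequence (Poisson 95% interval 14.9 to 25.3), that is, of autosomal sequence that passed the TSS and CDS limits. The density was 35.0 at 100 to 200 bp, 44.98 (37.5 to 53.6) at 200 to 300 bp, 38.2 at 300 to 400 bp and 34.5 at 400 to 500 bp. At 2000 to 5000 bp from the end it was 33.1 (31.7 to 34.4). Of the bins within 500 bp, the highest lay 200 to 300 bp downstream, with 51.9 per Mb (41.0 to 64.9), against 37.2 (27.5 to 49.2) at the same distance upstream. From 0 to 500 bp the density was 37.4 per Mb downstream and 30.9 upstream, and at 2000 to 5000 bp it was 38.1 and 27.1. Over the whole window of 500 bp the density was 34.3 per Mb, 1.04 times that at 2000 to 5000 bp. That ratio fell to 0.905 with a window of 250 bp and to 0.969 with regions over 5 kb from a TSS, so no excess over the surroundings is read from it. All eligible autosomal sequence held 18.2 per Mb, close to the 17.8 per Mb (11.6 to 26.0) found within 100 bp on the upstream side and to the 21.4 (14.6 to 30.2) on the downstream side. Eligible 3′ UTR sequence held 29.6 regions per Mb, intron 21.5 and intergenic sequence 15.3. The median GC content within 100 bp of an end was 38.8% over all 16502 genes with an eligible end, and 45.3% over the 461 genes with a region. It was not measured at other distances, and the part of base composition in the low density was not tested.

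**Figure D1:**
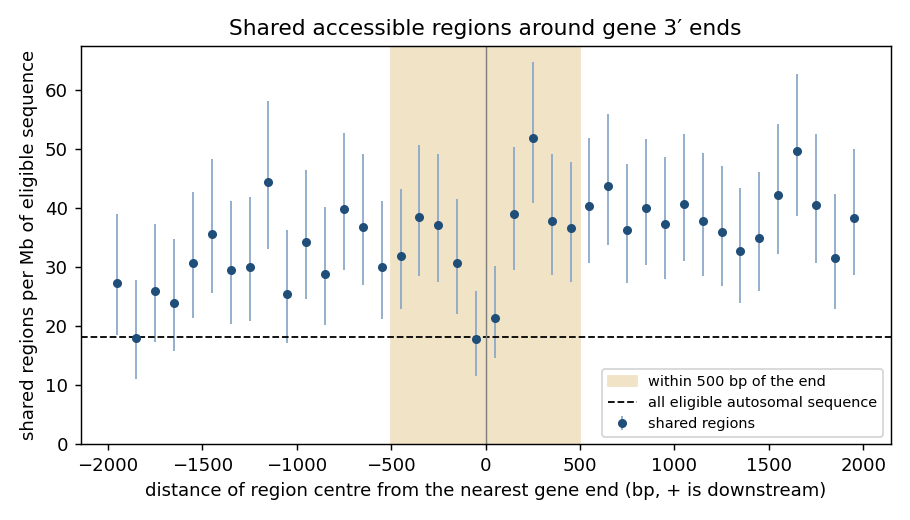
Shared regions per Mb of eligible autosomal sequence (y axis) by distance of the region's centre from the nearest protein-coding gene end in bins of 100 bp (x axis, positive is downstream); bars are Poisson 95% intervals, the shaded band is the window of the rule and the dashed line the 18.2 per Mb of all eligible sequence. The 2 bins next to the end, at 17.8 and 21.4 per Mb, lie below the others within 500 bp.

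Signal, the density value that the authors deposited with each peak, was taken from the strongest peak of each library in a region. At gene ends it ran from 0.130 to 14.9 in replicate 1, with a median of 1.43, and from 0.104 to 14.4 in replicate 2, with a median of 1.09. The medians of other distal regions were 1.07 and 0.791. Regions at gene ends were thus stronger by 0.41 on the log2 scale in replicate 1 and by 0.46 in replicate 2 (mean 0.43 ± 0.033, SD, n = 2), or 1.33-fold and 1.37-fold. In 302 of the 485 regions (62.3%) the signal was above the median of the other distal regions in both libraries. The closest class was that of 567 distal regions in a 3′ UTR but over 500 bp from a gene end, with medians of 1.22 and 0.935. Regions inside coding exons over 2 kb from a TSS, 835 in number, had medians of 0.968 and 0.807. Within the gene-end regions, medians were close on both sides of the end: the upstream regions had medians of 1.42 and 1.08 and the downstream ones 1.43 and 1.10. Regions in a 3′ UTR had 1.41 and 1.09, and those outside every gene 1.37 and 1.09.

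**Figure D2:**
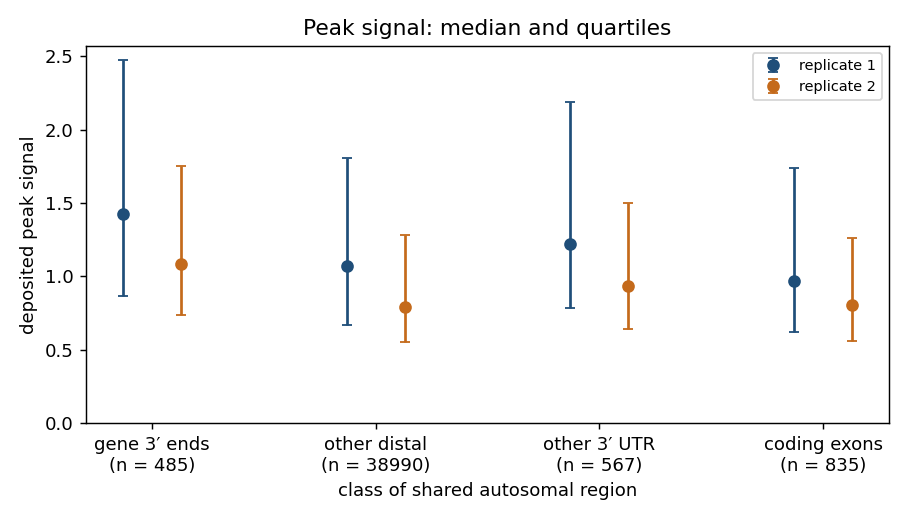
Median (points) and quartiles (bars) of the deposited peak signal (y axis) in each library for 4 classes of shared autosomal region over 2 kb from a TSS (x axis). In both libraries the regions at gene 3′ ends had the highest median of the 4, at 1.43 and 1.09, with quartiles that overlap those of the other classes.

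The strongest regions lay at genes of varied function, and 10 of the 24 strongest were CpG-rich. Among the 24 with the best mean rank, the signal ran from 4.94 to 14.9 in replicate 1 and from 3.72 to 14.4 in replicate 2. Of these 24, 9 lay downstream and 15 upstream of the end. A GC content of at least 50% with an observed to expected CpG ratio of at least 0.6 in 200 bp at the centre, a usual mark of CpG islands, was found in 10 of the 24, against 46 of all 485 regions (9.48%) and 4.43% of other distal regions. Among other distal regions the share was 2.94% in introns, 5.74% in intergenic sequence and 7.76% in a 3′ UTR. In regions inside coding exons it was 28.98%. The exact interval of the share at gene ends, 7.03 to 12.4%, held the 3′ UTR share and lay below that of coding exons. The 46 CpG-rich regions at gene ends had median signals of 2.48 and 1.94, and the other 439 had 1.37 and 1.02. The 24 were chosen by signal, and the CpG-rich share of other distal regions of like signal was not measured.

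The strongest was 185 bp downstream of Ctdsp1, which encodes a phosphatase of the C-terminal domain of RNA polymerase II, with 14.9 in replicate 1 and 14.4 in replicate 2 (14.6 ± 0.37, SD, n = 2). Its sequence is printed above and its GC content was 70%. The second lay 19 bp from the end of Hjurp, the chaperone that loads the centromeric histone CENP-A, with 14.2 and 9.51 (11.8 ± 3.3). The end of a second gene, Mroh2a, lay 201 bp from its centre. The third was 439 bp downstream of Fam120a, which encodes an RNA-binding scaffold protein, with 12.5 and 9.82 (11.2 ± 1.9).

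The fourth was 304 bp downstream of Acvrl1, the gene of the TGF-beta family receptor ALK1, with 11.6 and 7.59 (9.60 ± 2.8). Others in the 10 strongest were at Rtn2, a reticulon of the endoplasmic reticulum (10.5 and 6.44), Sertad1, a regulator of CDK4 (9.21 and 8.34), and the agouti gene a, a paracrine signal in pigmentation (8.43 and 6.31). The remaining 3 were at Bcan, the proteoglycan brevican (9.50 and 5.16), Dand5, a secreted antagonist of Nodal (8.38 and 5.52), and Ripor1 (6.98 and 5.62). Ctdsp1 had the highest value in each library. Fam120a was above Acvrl1 and Sertad1 above a in both libraries, while Hjurp and Fam120a, and Rtn2 and Sertad1, changed places between them.

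Among the other 14, Ror2, a receptor tyrosine kinase for Wnt5a, had 8.05 and 4.68 in its 3′ UTR, 408 bp before the end. Zfp36l2, an RNA-binding protein that promotes mRNA decay, had 5.86 and 4.45 at 291 bp downstream, and Wwc1, the Hippo pathway protein KIBRA, 6.15 and 3.72. Bcat2, a mitochondrial aminotransferase of branched-chain amino acids, had 7.22 and 5.24, and Slc34a3, a phosphate cotransporter, 6.81 and 3.92. The rest were at 1700008O03Rik, Prss22, 3300002I08Rik, Lrrc24, Fhl3, 1700029H14Rik, Acbd4, Vgf and Dtnb. Of the 24, 2 had a transcript start of the RefSeq annotation within 2 kb that the annotation used for the rule does not hold: 3300002I08Rik at 30 bp and Zfp36l2 at 709 bp. Among all 485 regions 21 (4.33%) had one, against 7.19% of other distal regions. All 24 held footprints in both libraries, and 8 had a CTCF match.

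**Figure D3:**
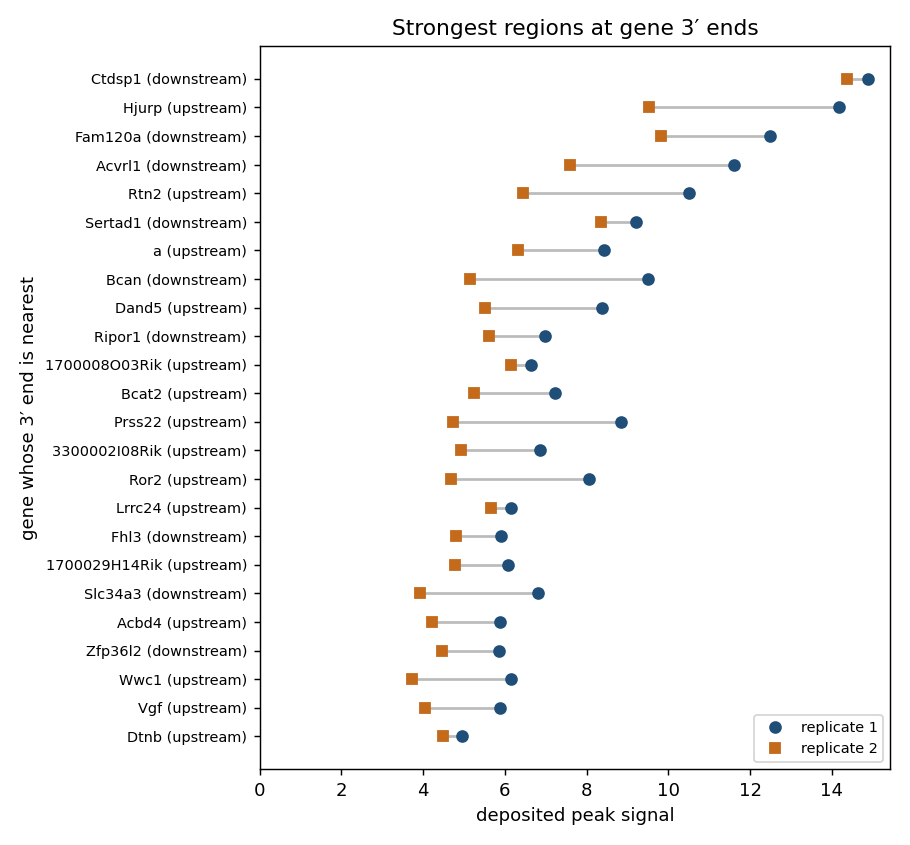
Deposited peak signal (x axis) in each library for the 24 regions with the best mean rank, named by the gene whose 3′ end is nearest and the side of the end (y axis); lines join the libraries. Ctdsp1 has the highest value in each library, 14.9 and 14.4.

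Genes of bladder cell types, of other tissues and of shared pathways were looked up in 15 lists, most of which held few or no gene-end regions. The background is 461 of 16502 genes with an eligible end, or 2.79%. Of 27 urothelial genes with an eligible end 4 had a region, and of 19 smooth muscle genes 4. Leaving out regions within 2 kb of a RefSeq transcript start left 3 in each list, since Upk1a had such a start at 19 bp and P2rx1 at 473 bp. Counts this small are given as a description, with no test of the lists. The urothelial genes were Upk3b, Upk1a and Upk1b, which encode uroplakins of the apical membrane, and Elf3, an epithelial transcription factor. The region in the 3′ UTR of Upk3b, 317 bp before the end, had 6.42 in replicate 1 and 3.37 in replicate 2, against 1.91 and 1.64 for the strongest peak at its promoter. The region 292 bp downstream of Upk1a had 3.32 and 2.61, that in the 3′ UTR of Upk1b 2.17 and 1.17, and that 431 bp downstream of Elf3 1.52 and 0.927.

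The smooth muscle genes were Lmod1, Actg2, P2rx1 and Smtn. Lmod1 encodes leiomodin, a nucleator of actin filaments, and its region 335 bp downstream had 4.51 and 3.38. Actg2, the gamma actin of visceral smooth muscle, had 2.12 and 1.22 at 205 bp downstream, and P2rx1, the ATP-gated channel of the detrusor, 1.58 and 1.31 at 370 bp downstream. Smtn, the gene of smoothelin, had 1.02 and 0.799 in its 3′ UTR with no footprint in either library. Of these 8 regions 7 were above the median of other distal regions in both libraries, and that of Smtn was below it in replicate 1.

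Of 20 immediate-early and stress genes 2 had a region: Zfp36, which encodes the mRNA decay factor tristetraprolin (5.75 and 3.69 at 224 bp downstream), and Klf6, a zinc-finger factor with 3 regions. The Klf6 regions lay 324 bp upstream (1.87 and 1.40), 86 bp downstream (2.30 and 1.93) and 386 bp downstream (0.583 and 0.704) of the end. A single gene was found in each of 3 further lists: Myod1 of 15 striated muscle genes, Dlx2 of 18 brain genes and Fgfr1 of 22 signalling genes. Myod1, the master factor of skeletal muscle, had 1.22 and 0.656, both under the medians of gene-end regions. Dlx2, a homeobox factor of the forebrain, had 1.65 and 1.88, and Fgfr1, a receptor of fibroblast growth factors, 1.57 and 1.04. No region was found among 22 stromal, 15 endothelial, 10 neural and glial, 15 immune, 12 housekeeping and 16 nuclear receptor genes. The same held for 16 genes of the cleavage and polyadenylation machinery and 9 of CTCF and cohesin.

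Matches to the CTCF core were more frequent at gene ends than in other distal regions, and matches to the AP-1 site less frequent. A window of 200 bp at the centre held a CTCF match, on either strand with at most 1 mismatch, in 174 of 485 regions (35.9%, interval 31.6 to 40.3%), against 23.99% of other distal regions, 18.7% of regions in coding exons and 18.4% of all autosomal shared regions. Without a mismatch it was 14.2% against 9.01%. The AP-1 site TGANTCA, bound by Fos and Jun dimers, was found in 45 (9.28%, interval 6.85 to 12.2%), against 15.9% of other distal regions. That interval held the shares of regions in coding exons (9.70%) and of all autosomal shared regions (11.6%). The CTCF and AP-1 shares both moved with signal. Distal regions were split into tertiles of signal. The lowest, middle and highest held 87, 154 and 244 gene-end regions. The highest thus held 50.3% of the gene-end regions, against 33.1% of the others. In the lowest, 19.5% of the gene-end regions and 11.8% of the others had a CTCF match; the shares were 33.1% and 20.96% in the middle tertile and 43.4% and 39.3% in the highest. For AP-1 they were 14.9% and 16.3%, then 9.74% and 16.7%, then 6.97% and 14.6%. By tertiles of GC content, the CTCF share was 45.8%, 37.0% and 29.96% at gene ends, from the lowest to the highest tertile, against 30.8%, 21.7% and 18.3%. In these values the difference in CTCF matches between gene ends and other regions was smallest among the strongest regions, and that in AP-1 smallest among the weakest. The AP-1 shares at gene ends rest on 13, 15 and 17 matches from the lowest to the highest tertile of signal. No interval was computed within tertiles, so the order of the differences is a description.

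Of the other 19 motifs, the GC box GGGCGG of KLF and SP factors (16.5% against 10.3%), the CACCC box CCACCC (26.4% against 20.7%) and the E-box CAGGTG (21.03% against 16.6%) had shares whose interval lay above that of other distal regions. In coding exons these shares were 16.8%, 17.8% and 22.0%, and in all autosomal shared regions 24.9%, 23.6% and 15.9%. The GC content of the windows at gene ends was 54.5% at the median, against 52.0% in other distal regions. No match to the cAMP response element TGACGTCA was found (interval 0 to 0.758%), and the interval held the 0.423% of other distal regions. The interval held the share of other distal regions for TEAD (GGAATG, 14.2% and 14.9%), AGATAA for GATA factors (7.84% and 8.66%), RUNX (TGTGGTT, 5.77% and 4.57%), FOX (TGTTTAC, 3.09% and 3.83%) and ETS (CCGGAAG, 1.65% and 1.78%). It also held it for the E-box CAGCTG (22.7% and 21.2%), NF-Y (CCAAT, 21.4% and 21.2%), YY1 (AAGATGG, 2.68% and 3.35%), RFX (GTTGCCAT, 0.825% and 0.667%), and NFI, TTGGC and GCCAA spaced by 5 bases with at most 1 mismatch (2.27% and 3.16%). MEF2 (0.412% and 0.287%), SRF (0.619% and 0.998%) and the NRF1 palindrome (0 and 0.128%) were rare in both. Both strands were searched. CCAAT shares letters with the NFI pattern, and CAGCTG and CAGGTG are forms of the same E-box. A match is a match of letters and does not show that a factor is bound.

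**Figure D4:**
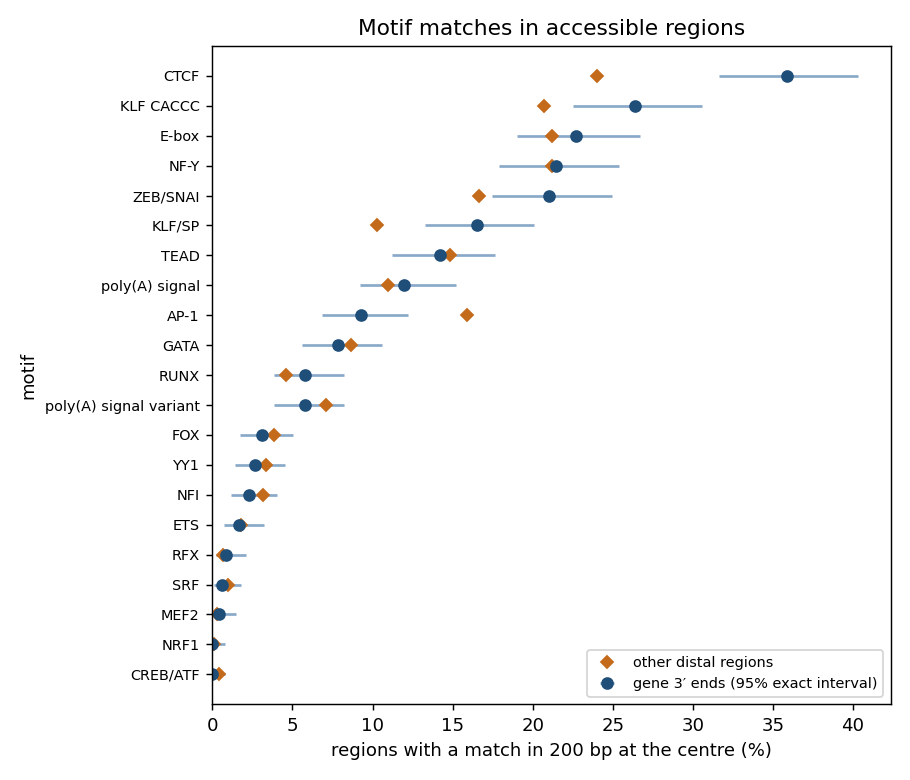
Share of regions (x axis, %) with a match to each of 21 motifs (y axis) in 200 bp at the centre, for the regions at gene 3′ ends with exact 95% intervals (circles) and for other distal regions (diamonds). CTCF stands at 35.9% against 23.99%, and AP-1 at 9.28% against 15.9%.

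CTCF matches lay under footprints and AP-1 matches mostly did not. For CTCF a match without a mismatch was taken where there was one, and otherwise a match with 1 mismatch. The nearest such match to the centre overlapped a footprint in 164 of 174 regions in replicate 1 and in 147 in replicate 2. All of the latter 147 (84.5%) had one in both. The AP-1 match overlapped one in 13 of 45 regions in replicate 1, 7 in replicate 2 and 4 in both. Footprints covered 22.6% of the bases of the windows in replicate 1 and 14.2% in replicate 2, and a CTCF match of 12 letters can overlap one more easily than an AP-1 match of 7. Other distal regions gave like values, 93.4% and 83.1% for CTCF and 32.3% and 20.3% for AP-1. The 4 regions with an AP-1 match under a footprint of both libraries are printed with the match in capitals. They lie at Ldhd, a lactate dehydrogenase of the D form, Psmc1, a subunit of the proteasome cap, Dlx2, a homeobox factor, and Thbs4, a thrombospondin of the extracellular matrix.

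Ldhd, 405 bp upstream in the 3′ UTR, chr8:111624153-111624182, plus strand: gagccaagtgcTGACTCAtgggcatgcttc
Psmc1, 375 bp upstream in an intron, chr12:100123022-100123051, plus strand: ccacacccgacTGACTCAtactgttctgtc
Dlx2, 228 bp downstream, chr2:71543171-71543200, plus strand: ccggcgctgagTGACTCAcgccgccttagg
Thbs4, 400 bp downstream, chr13:92751157-92751186, plus strand: tttcttccattTGACTCAcaggacgctagg

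The signals of these 4 were 2.82 and 2.24 at Ldhd, 2.40 and 1.61 at Psmc1, 1.65 and 1.88 at Dlx2 and 1.60 and 0.943 at Thbs4, all below the 24 strongest. Downstream of the end the CTCF match was on the strand of the gene in 63 regions and on the other strand in 39, and upstream in 34 and 38.

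Footprints were found in 96.9% of the gene-end regions in replicate 1 and 90.9% in replicate 2, and in 89.1% in both. The shares of other distal regions were 95.3%, 86.6% and 83.9%. The difference in the share with both, 5.22 percentage points, fell to 1.24 with the stricter peak lists and was 9.06 without replicate 2. By tertiles of signal the share with footprints in both was 54.0% at gene ends against 63.2% in the lowest tertile, 94.8% against 90.3% in the middle and 98.0% against 98.3% in the highest, so that the order was not the same in each tertile. A gene-end region held a mean of 2.90 footprints in replicate 1 and 2.15 in replicate 2.

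Open regions over the poly(A) signal itself were few. A hexamer AATAAA or ATTAAA lay on the gene's strand within 40 bp before the end in 317 of the 461 genes with a region (68.8%) and in 71.8% of all 16502 genes with an eligible end. Of the 58 regions that covered the end, 33 had such a hexamer and 30 of those covered it. A footprint overlapped the hexamer in 8 of these 30 in replicate 1 and in 3 in replicate 2, all 3 in both. The 3 strongest regions that covered an end with a hexamer in its last 30 bases are shown by the last 30 bases up to the annotated end on the strand of the gene, with the hexamer in capitals.

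Hjurp, chr1:88262471-88262500, minus strand: tAATAAAttgctgtaaggggagaaggctga
Mtch2, chr2:90866781-90866810, plus strand: ttgctcagtgaaaATTAAAagtcttatttc
Cyp2s1, chr7:25802475-25802504, minus strand: gttttgcAATAAAagtttgtttctggcccg

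In Hjurp the hexamer began 29 bases from the end, in Mtch2, a mitochondrial outer membrane insertase, 17 bases, and in Cyp2s1, a cytochrome P450, 23 bases. The regions had 14.2 and 9.51, 4.15 and 2.39, and 3.37 and 2.58. On either strand of the 200 bp windows, AATAAA was found in 11.96% of gene-end regions and 10.9% of other distal regions, and ATTAAA in 5.77% and 7.11%.

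The genes themselves more often had an open promoter than other genes. A shared peak lay within 1 kb of a TSS in 372 of the 461 genes with a region (80.7%), against 10977 of the 16041 with an eligible end and no region (68.4%). The difference from all genes with an eligible end, 11.9 percentage points, was 6.76 for regions over 5 kb from a TSS. The promoter signal of the open ones was close in both groups, with medians of 4.75 and 3.97 against 4.98 and 4.19. The genes had a median length of 19967 bp, against 21790 bp. In the 394 regions whose gene had an open promoter, the end was mostly weaker than the promoter, with a median log2 ratio of end to promoter of -1.53 in replicate 1 and -1.64 in replicate 2. In 64 of the 394 (16.2%) the end was the stronger in both libraries. Among them were Acvrl1, with a promoter of 1.48 and 1.14 against 11.6 and 7.59 at the end, and Bcan, with 0.609 and 0.751 against 9.50 and 5.16. Rtn2 (2.12 and 1.43 against 10.5 and 6.44), Fam120a (2.82 and 3.53 against 12.5 and 9.82) and Ctdsp1 (12.3 and 10.1 against 14.9 and 14.4) showed the same order. Of the 24 strongest regions, 22 had an open promoter and in 16 the end was the stronger in both libraries. These 24 were chosen by the signal at the end, which favours that order. In the rest of the 22 the promoter was the stronger in both libraries. These were Hjurp (40.7 and 32.1 against 14.2 and 9.51 at the end), Sertad1 (17.1 and 14.2 against 9.21 and 8.34), a, Acbd4, Zfp36l2 and Vgf.

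**Figure D5:**
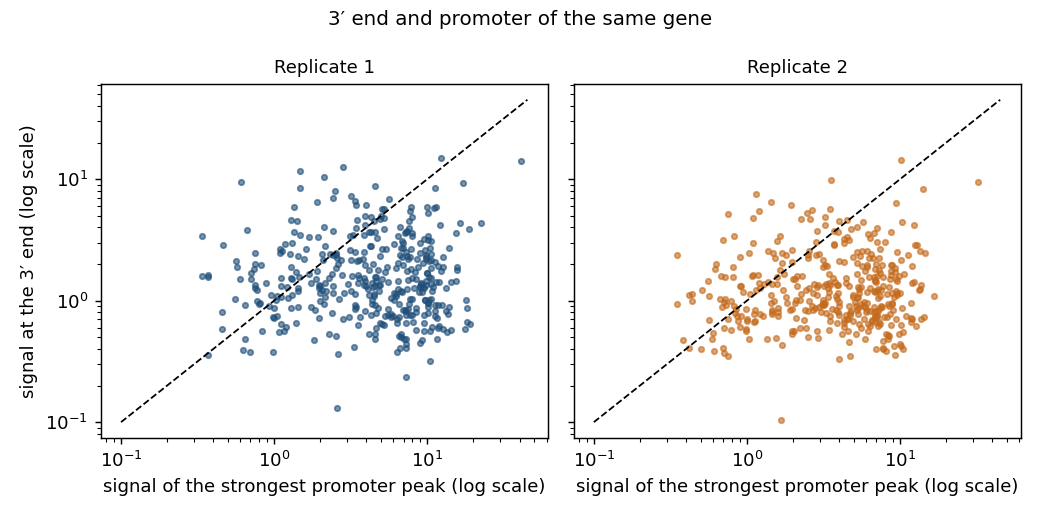
Signal of a region at the 3′ end (y axis, log scale) against that of the strongest shared peak at the promoter of the same gene (x axis, log scale) in each library, for the 394 regions whose gene had an open promoter; the dashed line marks equal values. Most points lie below the line, and 64 lie above it in both libraries.

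The end of a second protein-coding gene lay within 1 kb of the centre in 42 regions (8.66%, interval 6.31 to 11.5%), 41 of them on the other strand. Measured from end to end, 44 of the 461 genes (9.54%) had such a neighbour, against 9.20% of all genes with an eligible end. The strongest were at Hjurp and Mroh2a (14.2 and 9.51), 1700008O03Rik and Shank1, a scaffold of synapses (6.63 and 6.15), and Shf and Duox1, an oxidase that makes hydrogen peroxide (4.76 and 4.65). The next were at Rhoc, a small GTPase, and Mov10, an RNA helicase (4.57 and 4.16), a second region of Shf (3.91 and 3.37) and Trp53i13 with Git1 (3.67 and 3.64). Shf and Klf6 had the most regions, 3 each. A further 20 genes had 2 and 439 had 1.

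Gene-end regions had another shared region closer by than other distal regions did: the nearest centre lay at a median of 3960 bp, against 5922 bp. Any autosomal shared region counted as a neighbour, those at promoters included, and distal neighbours were not measured apart. The median was 5096 bp for distal regions in a 3′ UTR away from a gene end, and 5237 bp for coding exons. Another centre lay within 1 kb in 20.4% of gene-end regions, 17.3% of other distal regions and 21.4% of coding-exon regions. Soft-masked repeat sequence made up 9.31% of the bases at gene ends, against 9.25% in other distal regions. By chromosome, 1.74 to 4.19 of every 100 genes with an eligible end had a region, lowest on chromosome 18 and highest on chromosome 11.

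With each library divided by its median over autosomal shared regions, the SD of the log2 ratio between replicates was 0.40, against 0.44 in other distal regions, and across the 485 regions the log2 signals had a Pearson correlation of 0.932, given as a description across regions of the same 2 libraries. The median of the scaled log2 ratio of replicate 1 to replicate 2 was -0.03. The largest ratios in favour of replicate 1 were at Rdh16f2 (2.57 and 0.855 before scaling), Trp53tg5 (2.21 and 0.735) and Wipf2 (3.20 and 1.13). Those in favour of replicate 2 were at Esrp2, an epithelial splicing regulator (0.380 and 0.767), Rdh8, a retinol dehydrogenase (0.552 and 1.02), and Cebpd, a bZIP factor (0.234 and 0.400). Just inside the 500 bp limit lay regions at Fgfr4 (500 bp, 0.588 and 0.879), Fhl3 (499 bp, 5.90 and 4.80) and Musk (498 bp, 0.411 and 0.352). Just outside it, at 501 bp, lay regions at Tspan33 (1.71 and 1.29), Bmp1 (0.968 and 0.767) and 4921524J17Rik (0.968 and 0.352).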

How the data were processed

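DNase-seq cuts open chromatin with DNase I and sequences the fragments. For each sample the authors deposited peaks on mm10, each with a signal (a density value), and footprints, whose deposited p-value is 0.01 throughout. Aligner, peak caller, footprint caller and depth: not given in the sources used here. No precision from depth can therefore be stated. False discovery rate tracks were not used. The list with more rows was taken per library: 139821 and 82225 peaks, with 331596 and 200630 footprints.

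Peaks were joined where they overlapped by at least 1 bp. Gene ends, TSSs and CDS came from GENCODE M21, the end being that of the gene record and the CDS limit applying to the region's centre. Sequence came from RefSeq GRCm38.p6. A footprint was counted where its centre lay in the region. Motifs were searched in 200 bp at the centre, on both strands. Intervals are exact binomial or Poisson at 95% and cover counting error only. No test was made. Scripts used Python 3.11.15, pandas 2.3.3, numpy 2.4.6, scipy 1.17.1 and pysam 0.24.0 and were tested on simulated data.

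The members and lists were chosen with earlier results of these data known. The genes named were the 24 regions with the best mean rank of signal, up to 3 regions per gene list, those with the most regions, and the 6 best with a second gene end within 1 kb. Also named were the 3 largest and 3 smallest replicate ratios, the 3 regions on each side of the 500 bp limit, and up to 8 CTCF and 6 AP-1 matches under footprints of both libraries. Elf3, Smtn and the regions over a poly(A) hexamer were named after their values were seen. Alternatives changed the peak list, overlap, window, TSS distance, gene end, CDS limit, sequence window, CTCF mismatch, footprint overlap, signal summary and library, and a limit from RefSeq transcript starts was added after seeing the data. The result of 1 gene list is not reported here.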

Additional observations from a re-analysis of the deposited data

How the results depend on the processing

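Over 20 results, 18 alternatives gave 230 values, of which 177 stayed near the main value, 49 moved further and 4 changed direction. Near meant within a set fold change for counts, and within a spread about the main value for all other results. All 4 were the density within 500 bp divided by that of the surroundings (1.04): it was 0.905 with a window of 250 bp, 0.969 over 5 kb from a TSS, 0.998 with no base of a region in CDS and 0.998 against 1000 to 2000 bp. The cause was not tested. The ratio was 1.06 with the stricter peak lists, 1.05 over 1 kb from a TSS, 1.01 for transcript ends and 1.04 with peaks overlapping by 50%. Its spread, 1.0346 to 1.0405, came from the SD between the single libraries and leaves out counting error. The Poisson interval of the density within 500 bp, 31.3 to 37.5 per Mb, held the 33.1 of the surroundings. The main ratio thus had no direction beyond counting error.

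The 485 regions became 309 with the stricter lists, 216 and 982 with windows of 250 and 1000 bp, 272 over 5 kb from a TSS and 732 for transcript ends. The log2 signal difference of 0.43 became 0.38, 0.50, 0.39 and 0.35 with the stricter lists, 250 bp, 5 kb and transcript ends. It stayed above 0 in all alternatives run. The stricter lists gave an SD of the replicate ratio of 0.35, footprints in 96.8% (1.24 percentage points above other distal regions, in place of 5.22), CTCF matches in 42.7%, open promoters in 74.7% and 7 listed genes in place of 14. Windows of 250 and 1000 bp gave 8 and 23 listed genes and a second gene end in 11.6% and 5.91%, and 5 kb gave 6 listed genes. A second end within 500 bp was found for 4.54%. A sequence window of 100 bp gave a GC content of 56% and CTCF matches in 31.1%, and no mismatch gave 14.2%. The ratio of CTCF shares to other distal regions ran from 1.35 to 1.58 and that of AP-1 from 0.566 to 0.713.

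With a single library, the count ran from 523 (without replicate 1) to 911 (without replicate 2), the density ratio from 1.01 to 1.02, footprints in both libraries from 47.8% (without replicate 2) to 79.4%, CTCF matches from 26.3% to 33.7% and open promoters from 81.5% to 85.5%. No paired analysis was possible because the libraries form a single group. With 2 libraries and unknown depth, small differences between classes cannot be resolved.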
